A study of Mus musculus with 6 samples.

Results

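The transcripts described here belong to the signalling pathway of leukaemia inhibitory factor (LIF), interleukin 6 and their shared receptor subunit gp130, measured in the whole uterus of mice 6 h after progesterone or oil. The set was defined by name as 10 genes: the ligands Lif, Il6 and Il11, the receptor subunits Lifr, Osmr, Il6ra, Il11ra1 and Il6st, the transcription factor Stat3 and the feedback inhibitor Socs3. A gene was taken as measured where at least 1 probe set carried its symbol alone, which held for 9 of the 10 genes and 23 probe sets, among 18193 genes with a symbol in the series. Il11ra1 was not analysed here. Where a gene had several probe sets, its value came from the one with the highest average on all 6 arrays.

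Both groups were females of 8 weeks on a mixed background that carried the floxed Gata2 allele (GATA2 f/f), and the labels name no recombinase for either. All had been ovariectomized at 6 weeks of age. The progesterone group received 1 mg of the hormone in 100 µl of sesame oil, and the oil group received sesame oil. There were 3 arrays a group, with RNA that the labels say came from pools of 3 mice. Whether every array held its own pool was not stated, and the p-values therefore reflect only how these arrays vary, which may be partly technical. The comparison asked which transcripts respond early to progesterone in a uterus without ovarian hormone. Removal of the ovaries leaves little oestrogen, so the tissue is a model of progesterone acting alone and not of early pregnancy.

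Most cytokines of this family bind a receptor subunit of their own and then engage gp130, the product of Il6st. LIF uses LIFR with gp130, oncostatin M uses OSMR with gp130, and interleukin 6 and interleukin 11 first bind a receptor chain that does not itself signal. The bound JAK kinases phosphorylate STAT3, which enters the nucleus and switches on genes that include Socs3, whose product binds gp130 and limits further signalling. In mice, LIF from the uterine glands is required for the embryo to implant, and interleukin 11 signalling is required for the stroma to form a decidua.

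Levels are log2 expression values from RMA, which combines the probes of a probe set, so a difference of 1 is a doubling, and levels of different genes are not compared. Changes are progesterone minus oil. A call is a Benjamini-Hochberg adjusted p under 0.05 in limma, adjusted over all 18193 genes. Called genes made up 11.7% of all genes, with 5.92% higher and 5.83% lower, and the 3 progesterone and 3 oil arrays did not overlap for 30.4%. Uterine identity was plain: Pgr, Esr1, Hoxa10 and Hoxa11 lay at or above 9.49 on all 6 arrays. The neutrophil transcripts S100a8 and S100a9 stood apart on progesterone replicates 2 and 3 and oil replicate 3, where S100a8 read 12.02, 12.48 and 11.82, against 5.01 on progesterone replicate 1 and 4.92 and 4.34 on oil replicates 1 and 2. The liver transcript Alb was 8.71 on oil replicate 3 and between 3.96 and 4.29 on the other arrays. The tissue is a mixture of cells, so fewer cells of a type and less RNA per cell cannot be told apart.

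Progesterone was followed by more Il6 and by less Lifr and Il6st, while Lif, Il11, Il6ra, Osmr, Stat3 and Socs3 did not pass the threshold. Of the 9 measured members 1 was higher and 2 were lower, and these 3 were those without overlap between the groups. Over all genes 11.7% were called and 30.4% had no overlap, so the members without overlap were near that share. The median log2 change of the members was -0.06, beside -0.02 over all genes. Lifr was 2.46-fold lower and Il6st 1.46-fold lower. Il6 is given no fold, since its oil values were at background.

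**Figure D1:**
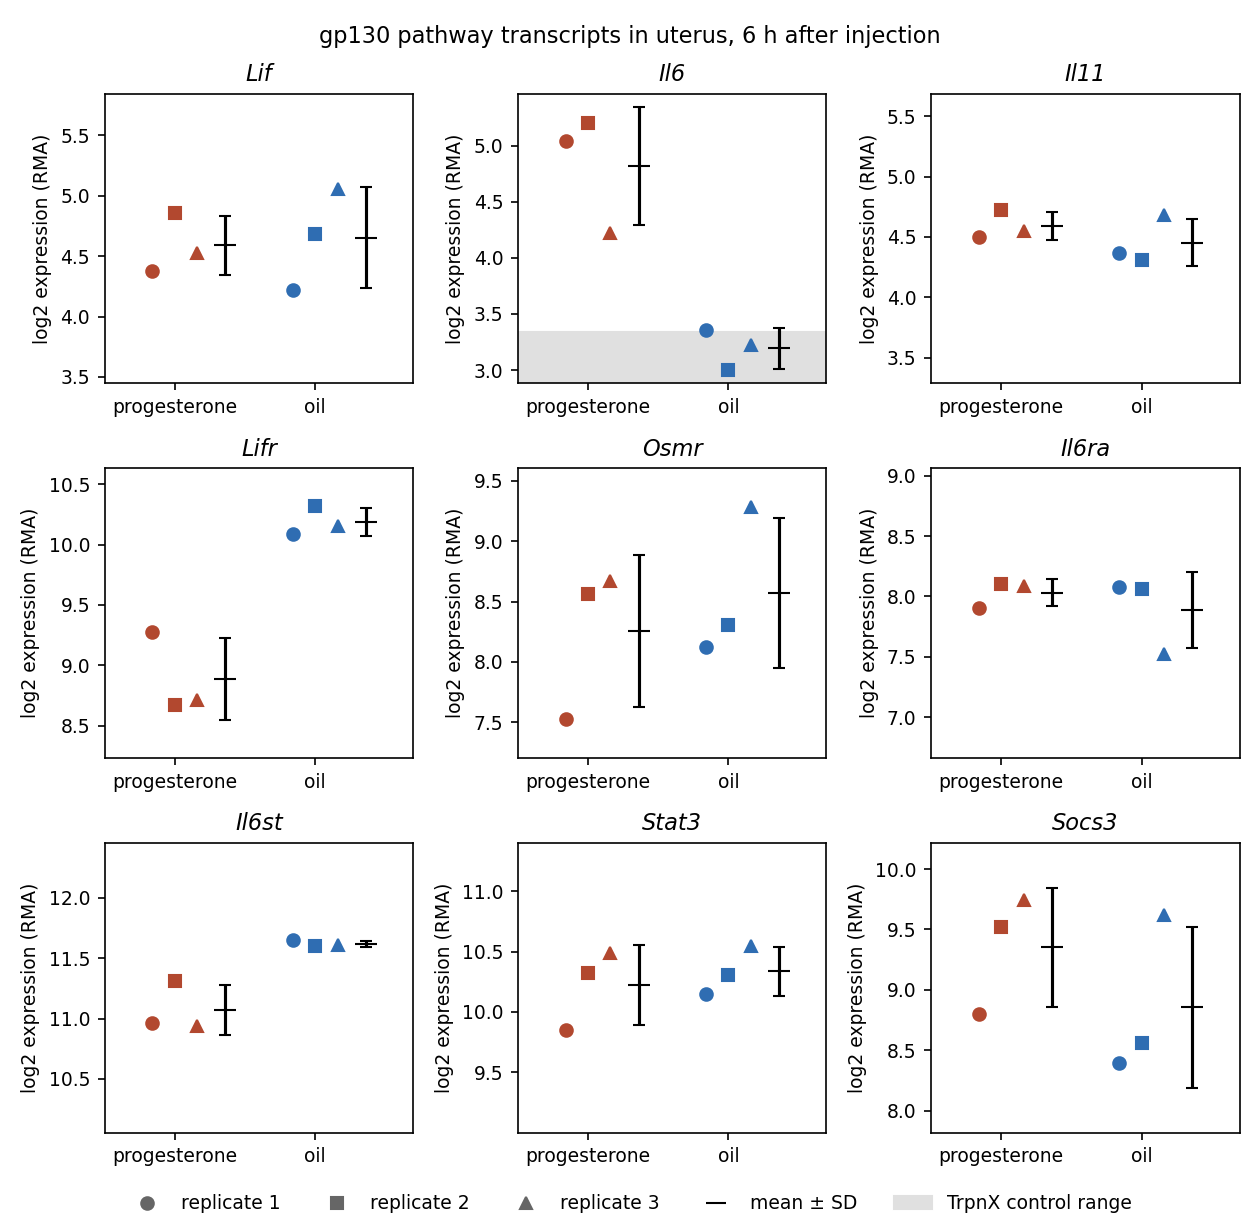
Log2 expression of the 9 measured members on each array, with progesterone left of oil, the replicate number as the marker shape and the mean ± SD beside each group of 3 arrays; every panel spans at least 2.4 log2 units. Il6 is higher and Lifr and Il6st are lower on all 3 progesterone arrays than on any oil array, and the grey band in the Il6 panel is the range of TrpnX control probe sets, 2.87 to 3.34.

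Among the ligands, Il6 encodes a cytokine that drives acute-phase and inflammatory responses. It read 5.04, 5.20 and 4.22 on progesterone replicates 1 to 3, against 3.36, 3.00 and 3.22 on oil replicates 1 to 3. All 3 progesterone values lay above all 3 oil values, and progesterone replicate 3 was the lowest of its group. The log2 change was 1.63 ± 0.253 (SE, limma adjusted p = 0.0101). The oil values lay at about the range of the bacterial TrpnX controls, whose highest value was 3.34, so the difference was measured against background. With 32 added to the linear value before taking log2, the change was 0.56 (adjusted p = 0.0346). The call ended without oil replicate 2 (adjusted p = 0.0523), and Il6 has 1 probe set here, so there was no second one to compare.

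Lif itself was low and did not pass. It read 4.38, 4.86 and 4.53 on the progesterone arrays, against 4.22, 4.68 and 5.06 on the oil arrays, and both the lowest and the highest value belonged to the oil group. Its log2 change was -0.06 with a 95% interval from -0.59 to 0.47, so a change of any size within that range remains possible. The second Lif probe set gave 0.01, with means of 3.69 ± 0.344 after progesterone and 3.68 ± 0.128 after oil (SD, n = 3 arrays each). Il11, the decidual ligand, read 4.50, 4.72 and 4.55 with progesterone, against 4.37, 4.31 and 4.68 with oil. Its groups overlapped, and its log2 change was 0.14 with a 95% interval from -0.16 to 0.43 (limma adjusted p = 0.577).

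The stretches before the transcription starts are shown for the 3 members that changed and for Socs3, the classical feedback target, so that the letters upstream of genes that moved and of one that did not pass can be read together. They come from RefSeq on GRCm38.p6 and hold the 250 bases before each annotated start, 5′ to 3′ on the gene's strand. Capitals mark matches to a searched motif. The Il6 stretch is chr5:30012864-30013113 on the plus strand, and the Il6st stretch is chr13:112463820-112464069 on the plus strand. Lifr has 2 annotated starts, with stretches at chr15:7129322-7129571 and chr15:7140292-7140541, both on the plus strand. The Socs3 stretch is chr11:117969367-117969616 on the minus strand.
Il6: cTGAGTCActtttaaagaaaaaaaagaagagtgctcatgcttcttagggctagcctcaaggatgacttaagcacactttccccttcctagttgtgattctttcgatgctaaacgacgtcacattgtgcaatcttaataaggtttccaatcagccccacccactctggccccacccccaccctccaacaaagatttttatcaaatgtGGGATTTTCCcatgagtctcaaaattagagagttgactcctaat
Lifr, first start: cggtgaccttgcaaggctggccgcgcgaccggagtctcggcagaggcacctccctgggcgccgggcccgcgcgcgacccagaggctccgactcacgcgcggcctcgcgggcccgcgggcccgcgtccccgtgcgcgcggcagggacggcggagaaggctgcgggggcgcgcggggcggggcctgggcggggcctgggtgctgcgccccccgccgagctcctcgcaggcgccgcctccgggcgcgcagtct
Lifr, second start: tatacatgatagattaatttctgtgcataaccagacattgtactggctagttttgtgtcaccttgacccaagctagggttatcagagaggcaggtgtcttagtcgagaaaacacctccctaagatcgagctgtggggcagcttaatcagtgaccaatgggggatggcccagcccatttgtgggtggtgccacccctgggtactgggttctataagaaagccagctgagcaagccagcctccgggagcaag
Il6st: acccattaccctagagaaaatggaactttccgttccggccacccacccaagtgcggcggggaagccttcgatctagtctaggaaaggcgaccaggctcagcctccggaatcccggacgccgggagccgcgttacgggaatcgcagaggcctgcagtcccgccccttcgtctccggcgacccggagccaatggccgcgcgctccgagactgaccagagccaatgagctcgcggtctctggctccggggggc
Socs3: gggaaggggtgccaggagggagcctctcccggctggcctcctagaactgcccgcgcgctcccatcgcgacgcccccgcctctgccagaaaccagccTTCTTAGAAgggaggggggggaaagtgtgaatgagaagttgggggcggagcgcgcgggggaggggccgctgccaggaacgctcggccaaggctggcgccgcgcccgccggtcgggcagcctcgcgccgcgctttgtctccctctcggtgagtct

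Each motif was searched on both strands. TTCNNNGAA, the palindrome bound by STAT factors, occurred in 1 of the 11 stretches of the 9 measured members, that of Socs3, as TTCTTAGAA from 154 to 146 bases before the start, and in 7.02% of the 32851 stretches of all genes. The full palindromic hormone response element, to which the progesterone receptor can bind, occurred in 0 of the 11 stretches and in 0.387% of all. Once the sequences had been seen, the AP-1 motif TGANTCA and the NF-κB motif were searched as well. Il6 held both, TGAGTCA from 249 to 243 bases and GGGATTTTCC from 44 to 35 bases before its start. AP-1 matches were also present before Lif and before 1 of the 2 starts of Il11. Over all genes the AP-1 motif was in 6.75% of the stretches and the NF-κB motif in 0.356%, shares that hold for these letters only. None of the 4 motifs matched before Lifr or Il6st, although the base composition of the 2 Lifr stretches differed widely, with 82.4% and 50.8% of G or C. These matches describe letters and not binding.

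The receptor for LIF showed the largest fall among the members. Lifr read 9.28, 8.67 and 8.71 on progesterone replicates 1 to 3, against 10.09, 10.32 and 10.15 on oil replicates 1 to 3. Even the highest progesterone value, on replicate 1, lay well below the lowest oil value. Its mean was 8.89 ± 0.341 after progesterone and 10.19 ± 0.119 after oil (SD, n = 3 arrays each). The difference was -1.30 on the log2 scale ± 0.175 (SE, limma adjusted p = 0.00677), at percentile 98.6 of all genes by size. The call held without any 1 array (adjusted p at most 0.0388). The other Lifr probe sets gave log2 changes of -0.33 and -0.18, the same direction, with adjusted p over all probe sets of 0.264 and 0.517. One of them read 4.55, 4.44 and 4.76 with progesterone, against 4.66, 5.17 and 4.92 with oil. The remaining one read 4.25, 3.95 and 3.87 with progesterone, against 4.34, 4.18 and 4.09 with oil. Both had overlapping groups. Averaging the 3 probe sets gave -0.60 (adjusted p = 0.019). Mouse Lifr is known to give transcripts for a membrane-bound and a soluble receptor, and which of them each probe set reads was not examined.

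Il6st, the gp130 subunit that all of these receptors share, read 10.96, 11.31 and 10.94 with progesterone, against 11.65, 11.60 and 11.61 with oil. The oil arrays were nearly equal (SD 0.0265), and every progesterone array lay below them. The Il6st log2 change was -0.55 ± 0.12 (SE, limma adjusted p = 0.0296). Its other 3 probe sets gave log2 changes of -0.35, -0.66 and -0.23, all the same direction and none past the threshold over all probe sets. The probe set at -0.66 read 6.24, 6.88 and 6.00 with progesterone, against 6.91, 6.92 and 7.26 with oil, again without overlap between the groups. The Il6st call ended without progesterone replicate 1, progesterone replicate 3 or any 1 of the oil arrays (adjusted p between 0.0723 and 0.1) and with the mean of the probe sets (0.093).

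Osmr, the subunit for oncostatin M, varied more within than between the groups, with 7.53, 8.56 and 8.67 after progesterone against 8.12, 8.31 and 9.28 after oil. Its lowest value was on progesterone replicate 1 and its highest on oil replicate 3. The log2 change was -0.32 with a 95% interval from -1.23 to 0.60 (limma adjusted p = 0.692). The other Osmr probe sets gave log2 changes of -0.23 and 0.08, at low oil means of 3.76 and 3.23. Il6ra, the chain that binds interleukin 6, read 7.90, 8.10 and 8.09 with progesterone and 8.08, 8.06 and 7.52 with oil. Only oil replicate 3 stood away from the other 5 Il6ra values, and the log2 change was 0.14 with an interval from -0.25 to 0.53. Lifr and Osmr are neighbours on chromosome 15 with no protein-coding gene between them, and their log2 changes were -1.30 and -0.32. Whether these changes differ was not tested.

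**Figure D2:**
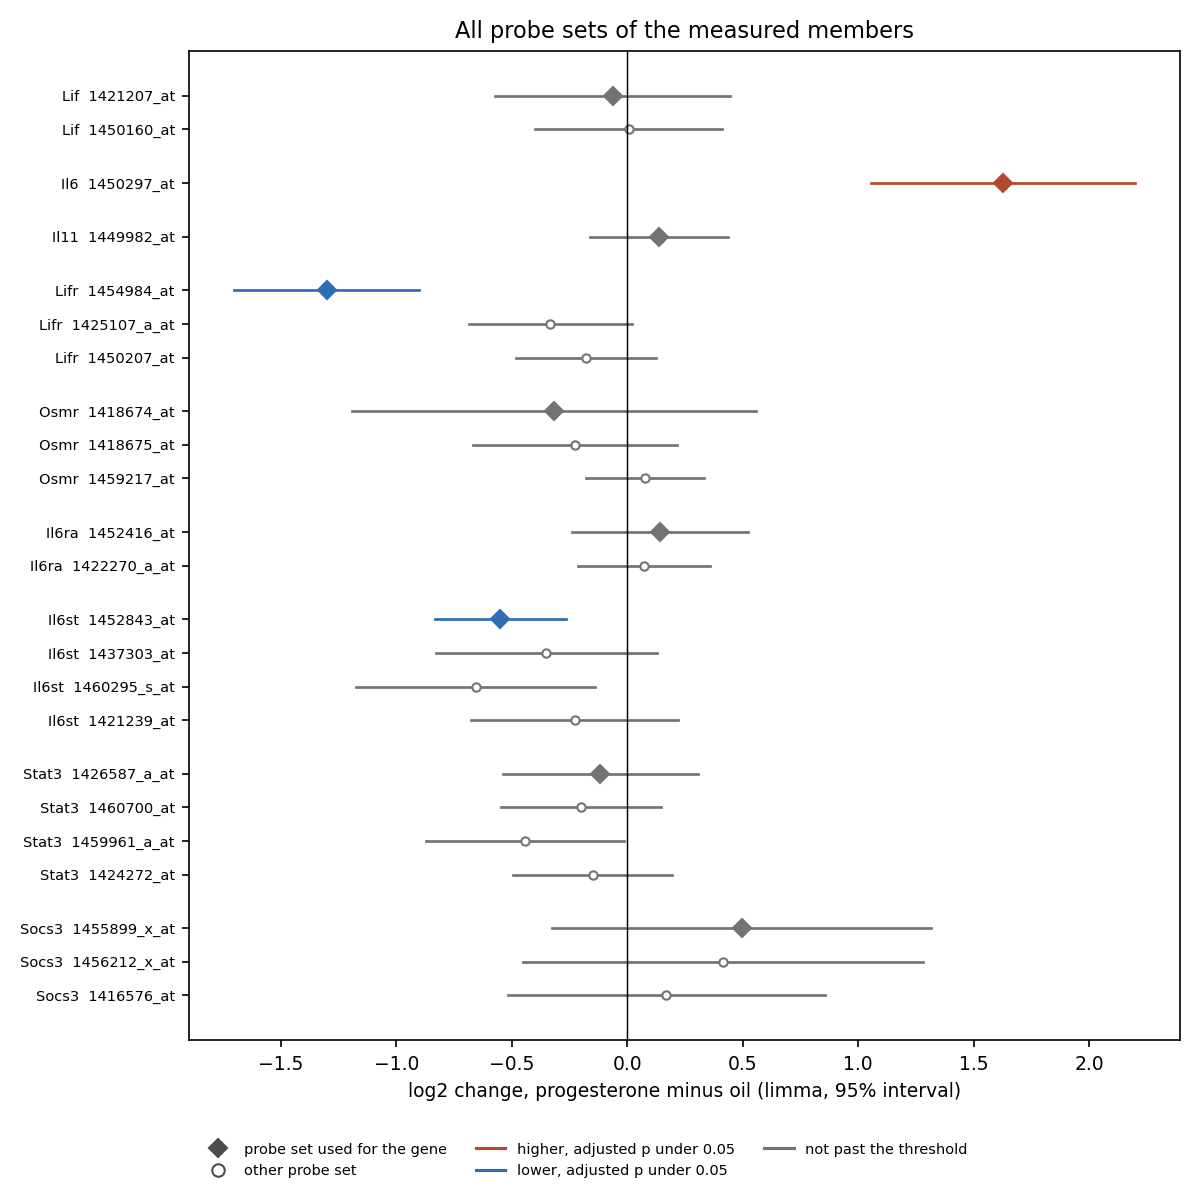
Log2 change, progesterone minus oil, of all 23 probe sets of the measured members with 95% intervals from limma over all probe sets; diamonds are the probe sets used for the genes and open circles the others. Of the 14 other probe sets 12 have the sign of the one used, and the probe sets past the threshold are the diamonds of Il6, Lifr and Il6st.

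Downstream of the receptors, Stat3 read 9.85, 10.32 and 10.49 after progesterone, against 10.15, 10.31 and 10.55 after oil. The groups overlapped almost fully, and the log2 change was -0.12 with a 95% interval from -0.55 to 0.32 (limma adjusted p = 0.773). Of the 23 member probe sets, 1 was higher (Il6) and 2 were lower (Lifr and Il6st), beside 4.01% higher and 3.76% lower of all 45037 probe sets, 7.77% together. The other Stat3 probe sets gave log2 changes of -0.15, -0.44 and -0.20. The probe set at -0.44 was lower with the replicate block (adjusted p = 0.0402 over all probe sets), and not without it (0.217). These are transcript levels, and the phosphorylation that activates STAT3 was not measured.

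Socs3 read 8.80, 9.52 and 9.74 with progesterone, against 8.39, 8.56 and 9.62 with oil. The values formed a low set of progesterone replicate 1 with oil replicates 1 and 2, and a high set of progesterone replicates 2 and 3 with oil replicate 3. The log2 change was 0.50 with a 95% interval from -0.36 to 1.36 (limma adjusted p = 0.469). The other Socs3 probe sets gave 0.41 and 0.17. The name of the probe set used ends in x, which marks probes that can also match other transcripts, and the probe set without that mark is the one at 0.17.

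The same 3 arrays that were high in Socs3 were those high in S100a8. On them Osmr was 8.56, 8.67 and 9.28 (progesterone replicates 2 and 3, oil replicate 3), against 7.53, 8.12 and 8.31 on the others. The corresponding Stat3 values were 10.32, 10.49 and 10.55, against 9.85, 10.15 and 10.31. On the probe sets used, Socs3, Osmr and Stat3 thus each had their 3 highest values on these arrays, though Stat3 only by 10.32 against 10.31. Every Socs3 probe set kept this order, while no other probe set of Osmr or Stat3 did. The nearest Stat3 one in level read 9.59 on progesterone replicate 2 and 9.70 on oil replicate 2. The summed level of the 5 measured neutrophil markers was 6.57, 12.91 and 13.34 (log2) on progesterone replicates 1 to 3, against 6.52, 6.51 and 12.74 on oil replicates 1 to 3. Not every marker had this pattern to the same degree. Cxcr2 read 3.16, 3.66 and 4.52 with progesterone, against 3.32, 3.37 and 4.66 with oil. Ngp read 3.91, 9.05 and 4.09 with progesterone, against 4.04, 3.56 and 5.51 with oil, and so was low on progesterone replicate 3. Of the 5 markers 0 passed the threshold, and with the replicate block Csf3r was higher (log2 change 0.51, limma adjusted p = 0.0328). The summed macrophage and leukocyte markers were 10.63, 11.53 and 12.10 on the progesterone arrays, against 10.62, 10.97 and 11.82 on the oil arrays. Of these 6 genes 0 passed, and with the block Cd14 was higher (log2 change 0.61, adjusted p = 0.016). The part of these cells in the levels of Socs3, Osmr and Stat3 was not tested.

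Il6, Lifr and Il6st had groups without overlap, so they keep their order on any split of the arrays. Their values on the 2 sets are given as description and not as a test. On the arrays low in S100a8, Il6 was 5.04 with progesterone and 3.36 and 3.00 with oil, Lifr was 9.28 against 10.09 and 10.32, and Il6st was 10.96 against 11.65 and 11.60. Among the arrays high in S100a8, Il6 was 5.20 and 4.22 with progesterone and 3.22 with oil. There Lifr was 8.67 and 8.71 against 10.15, and Il6st 11.31 and 10.94 against 11.61. With the mean of S100a8 and S100a9 as a covariate, a fit chosen after seeing the data, the log2 changes were 1.69 for Il6, -1.18 for Lifr and -0.57 for Il6st (limma adjusted p = 0.0117, 0.00536 and 0.0357). In that fit Osmr was also lower, with a log2 change of -0.71 (adjusted p = 0.00898), and Socs3 was at 0.14 (0.568). Only the probe set used for each gene was fitted in this way. Without both number 3 arrays, also chosen after seeing the data, the calls of Il6 and Lifr held (adjusted p = 0.00942 and 0.0409) and that of Il6st ended (0.134).

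**Figure D3:**
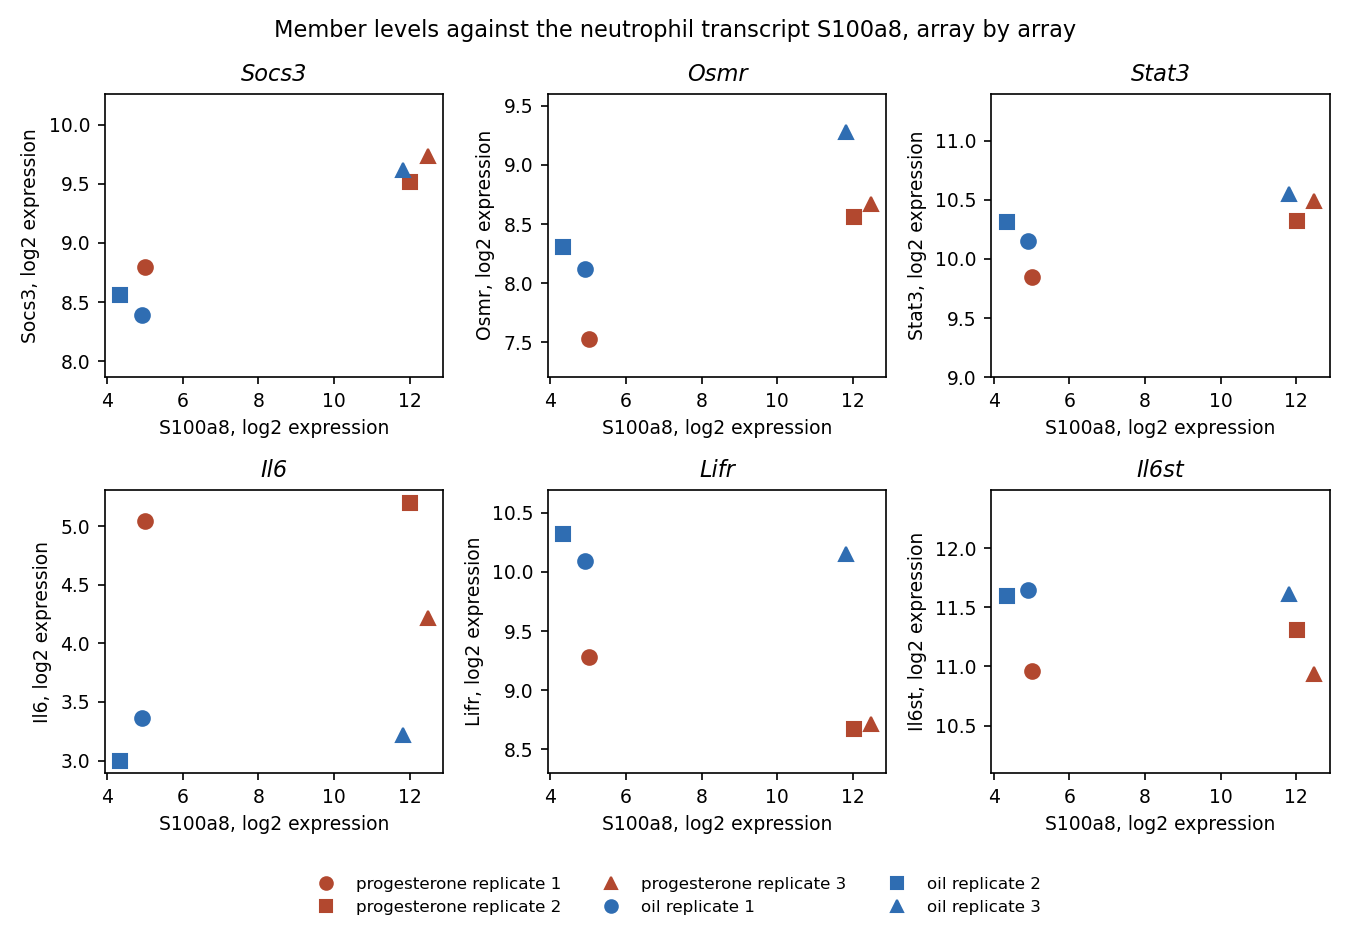
Log2 expression of 6 members against that of the neutrophil transcript S100a8 on each of the 6 arrays, progesterone in red and oil in blue, with the replicate number as the marker shape. On the probe sets shown, Socs3, Osmr and Stat3 are highest on the 3 arrays at S100a8 of 11.82 to 12.48. For Stat3 the margin is narrow (10.32 against 10.31). Il6, Lifr and Il6st separate by treatment, as groups without overlap do on any split of the arrays.

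Markers of other cells were set beside these values. The summed epithelial markers were 13.36, 12.79 and 13.61 on the progesterone arrays, against 13.49, 13.49 and 13.75 on the oil arrays, and 0 of 7 passed the threshold. Summed stromal markers were 14.83, 15.24 and 15.11 with progesterone, against 15.08, 15.24 and 15.26 with oil, and of 8 genes 1 was higher and 1 lower. The blocked fit called 2 higher and 2 lower, as Col1a1 (log2 change 0.66, limma adjusted p = 0.0338) and Vim (-0.53, 0.0355) joined them. The summed endothelial markers were 10.59, 10.71 and 10.64 with progesterone, against 10.69, 11.06 and 10.98 with oil. All 5 endothelial genes had a negative log2 change and 0 passed, while with the block Pecam1 and Tek were lower (log2 changes -0.46 and -0.43, adjusted p = 0.0293 and 0.0352). Adipocyte markers were 7.91, 8.97 and 6.59 with progesterone, against 9.76, 9.97 and 8.88 with oil, with 0 of 3 past the threshold and 2 lower with the replicate block. Summed myometrial markers were 14.96, 15.22 and 14.97 with progesterone, against 15.15, 15.18 and 15.16 with oil, and 0 of 6 passed. The epithelial, stromal, myometrial, endothelial and adipocyte sums thus all lay lower on average with progesterone, the direction of Lifr and Il6st. This direction was not particular to any of these lists. Among the progesterone arrays, replicate 2 was highest and replicate 3 lowest in both adipocyte markers and Il6st, while Lifr was nearly equal on these arrays. The part of cell composition in the fall of Lifr and Il6st was not tested.

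The other genes of the pathway were read from 7 lists of 89 genes written from textbook knowledge. Of the 80 measured, 3 were higher and 3 were lower, beside 5.92% higher and 5.83% lower of all genes, 11.7% together. The median log2 change of the 80 was 0.08. Before adjustment, 22 of the 80 had a limma p under 0.05, beside 26.0% of all genes. The fit with the replicate block called 13 higher and 7 lower, beside 7.60% higher and 8.49% lower of all genes, 16.1% together. The counts were sensitive to single arrays: 5 were higher without progesterone replicate 1 and 1 without oil replicate 2, and 1 was lower without any 1 of the oil arrays.

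Of the 5 other measured ligands of the family, which include oncostatin M, 0 passed in limma, and 1 had an unadjusted p under 0.05. That was Clcf1, the cardiotrophin-like cytokine that signals through LIFR and gp130, which read 7.68, 7.01 and 6.86 with progesterone, against 7.92, 8.08 and 7.70 with oil. Every progesterone value lay below the oil values, and the log2 change was -0.72 (adjusted p = 0.0836, and 0.0353 with the replicate block). Of 5 genes for other receptor chains of the family and for the sheddases Adam10 and Adam17, which can release soluble interleukin 6 receptor, 0 passed and 0 had an unadjusted p under 0.05. The largest log2 change there was 0.38, of the cytokine receptor chain Il31ra (adjusted p = 0.371). It rested on progesterone replicate 3, without which the log2 change was 0.09.

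The JAK kinases and other STAT factors had 1 of 9 members lower and 0 higher. That was the kinase Tyk2, at 7.50, 7.48 and 7.45 with progesterone against 7.81, 7.74 and 7.86 with oil (log2 change -0.33 ± 0.0836 SE, limma adjusted p = 0.0485). Its call ended without any 1 array (adjusted p = 0.0843 to 0.14) and with the replicate block (0.0612), and its other probe set had the opposite sign. The kinase Jak1 read between 9.43 and 9.96 on all arrays, with a log2 change of -0.05. Jak2 read 10.26, 9.71 and 10.26 with progesterone and 10.73, 10.65 and 10.47 with oil (log2 change -0.54, adjusted p = 0.0871). Stat5a, a factor for prolactin and growth hormone signals, had a log2 change of 0.36 (adjusted p = 0.134). With the replicate block Stat4, a factor for inflammatory cytokine signals named after its values were seen, was the 1 gene higher (log2 change 0.66, adjusted p = 0.00991, against 0.168 without the block). It read 4.22, 4.65 and 4.91 with progesterone, against 3.45, 3.98 and 4.38 with oil.

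Among the 14 brakes on JAK and STAT signalling 1 was higher and 0 lower, and 12 had a positive log2 change, beside 8521 of all 18193 genes. Socs7, a relative of Socs3, read 10.97, 10.48 and 10.11 with progesterone, against 9.50, 9.36 and 9.09 with oil. All progesterone arrays were above all oil arrays, and Socs7 had a log2 change of 1.20 ± 0.221 (SE, limma adjusted p = 0.0172), or 2.30-fold. Of its 3 other probe sets 1 also passed in the same direction and 1 had the opposite sign, and the mean of the probe sets gave 0.73. The Socs7 call ended without progesterone replicate 2 or oil replicate 2 (adjusted p = 0.0592 and 0.0696). Cish, a feedback target of STAT5, read 7.71, 7.66 and 7.62 with progesterone and 7.35, 7.54 and 8.04 with oil (log2 change 0.02). The median log2 change of the list was 0.20, and 5 of the 14 had groups without overlap, near the share of all genes (30.4%). With the replicate block Socs1, an inhibitor of JAK kinases, was higher as well (adjusted p = 0.0397, against 0.0687 without it). It read 5.16, 5.49 and 5.50 with progesterone, against 4.88, 4.83 and 5.09 with oil.

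The adaptors that carry gp130 signals to the MAP kinase and PI3 kinase routes had 1 of 8 members lower and 0 higher. Gab1, a docking protein for SHP2 and PI3 kinase, read 8.43, 8.41 and 8.30 with progesterone against 9.28, 9.54 and 9.33 with oil. The replicates were tight, and the groups lay far apart relative to their spread. Its log2 change was -1.0 ± 0.103 (SE, limma adjusted p = 0.00316), and the call held without any 1 array. One of its 2 other probe sets also passed, and both had the same sign.

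Of 27 STAT3 target genes 1 was higher and 1 lower, and their median log2 change was 0.30. The blocked fit called 7 higher (Myc, Bcl2l1, Pim3, Lcn2, Timp1, Vegfa and Zfp36) and 2 lower (Pim1 and Il4ra). Over all genes that fit called 7.60% higher and 8.49% lower. Bcl2l1, which protects cells from apoptosis, read 9.83, 9.26 and 9.30 with progesterone against 8.72, 8.62 and 8.55 with oil (log2 change 0.83, limma adjusted p = 0.0206). Of the 3 other Bcl2l1 probe sets only 2 had the same sign, and 1 of these passed. The mean of the Bcl2l1 probe sets gave 0.56 (limma adjusted p = 0.0135). Pim1, a survival kinase, read 8.19, 8.29 and 8.60 with progesterone against 8.89, 8.97 and 9.14 with oil (log2 change -0.64, adjusted p = 0.0252). The groups lay apart for both genes, and both are listed as targets of the same factor yet differed in direction. Bcl2l1 lost its call without any 1 of the oil arrays, and Pim1 without any 1 array other than progesterone replicate 3 (adjusted p up to 0.0827 and 0.0889). Chosen after their values were seen, the acute-phase genes Saa3 and Lcn2 each had their 3 highest values on the arrays high in S100a8. Hp and Lrg1 on the same list did so too. Lbp did not, as oil replicate 1 was among its 3 highest values (11.01). Fgg did not either, but its order says little. It read 4.67 on oil replicate 3, the array high in Alb, and 3.26 to 3.51 on the others, near the TrpnX controls. Saa3 read 5.40, 8.73 and 10.50 on progesterone replicates 1 to 3, against 5.17, 5.20 and 8.92 on oil replicates 1 to 3. Lcn2 read 9.93, 10.37 and 12.69 with progesterone, against 8.27, 8.23 and 12.07 with oil (adjusted p = 0.495, and 0.018 with the replicate block).

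Of 12 measured genes of uterine receptivity, on which LIF acts or which act beside it, 1 was higher and 0 were lower. Ihh, the epithelial hedgehog ligand, read 8.79, 8.46 and 8.61 with progesterone against 7.13, 6.02 and 6.61 with oil. Its log2 change was 2.03 ± 0.262 (SE, adjusted p = 0.00605 in limma), a 4.09-fold difference. The blocked fit called Ihh, Hbegf and Acod1 higher (7.60% of all genes) and Igfbp3, Coch and Muc1 lower (8.49% of all genes). Without the block the 5 of these other than Ihh had adjusted p between 0.158 and 0.547. Hbegf, an EGF receptor ligand that marks the site of implantation, read 8.43, 8.12 and 7.91 with progesterone, against 7.78, 7.86 and 7.14 with oil. Its lowest progesterone value still lay above its highest oil value. Coch, an epithelial gene that LIF is known to induce in mice, read 8.66, 8.24 and 7.82 with progesterone, against 9.19, 9.28 and 8.38 with oil. Muc1, a surface mucin, read 7.08, 6.56 and 9.39 with progesterone, against 7.96, 8.02 and 9.80 with oil, and lay highest on both number 3 arrays. Areg was not analysed here.

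**Figure D4:**
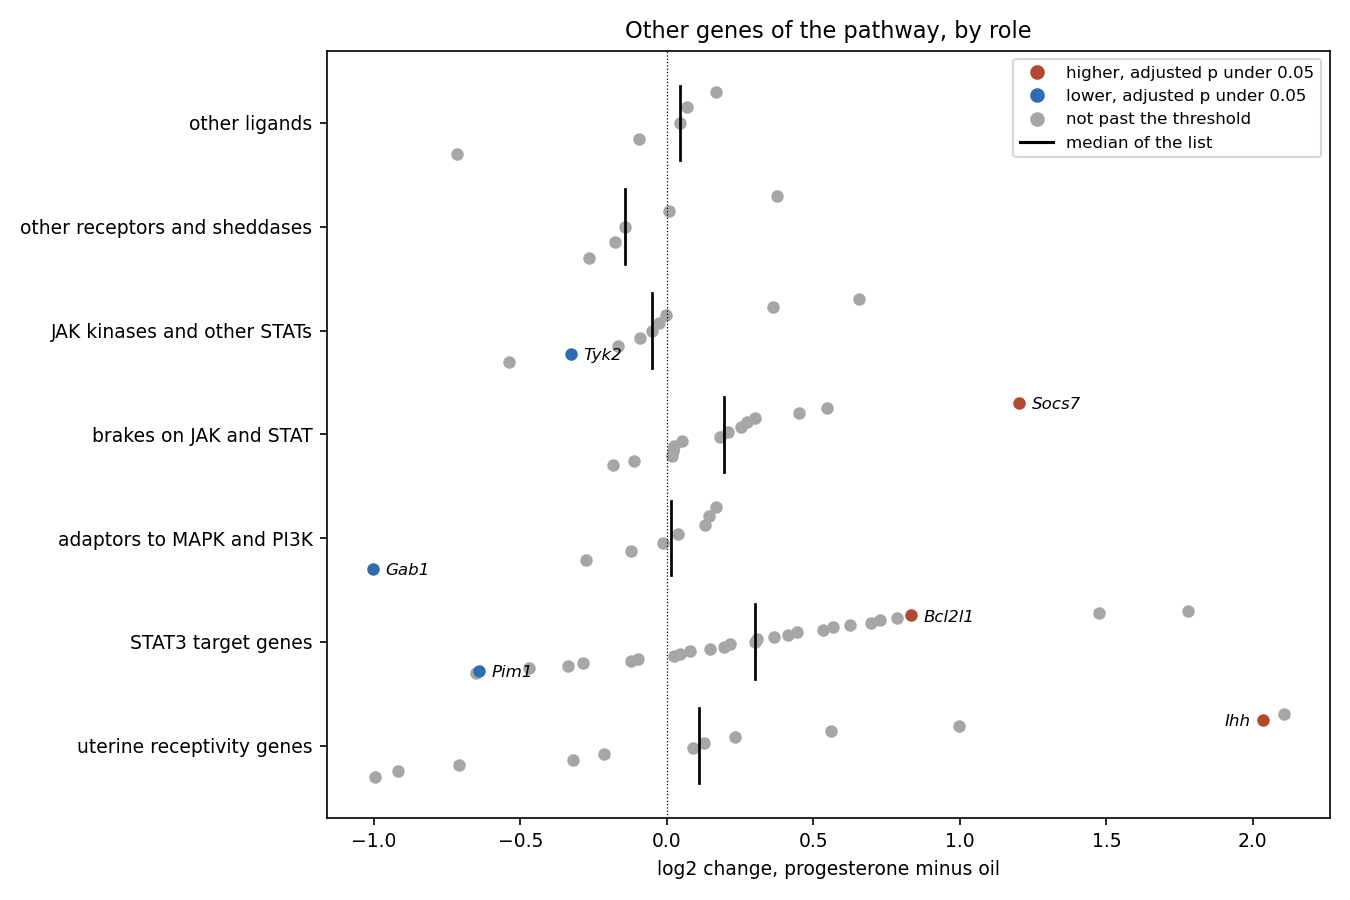
Log2 change, progesterone minus oil, of the 80 measured genes on the 7 lists, each dot a gene, red higher and blue lower past the threshold, grey not past it, and the black bar the median of the list. The named dots are the 6 genes past the threshold: Socs7, Bcl2l1 and Ihh to the right, Tyk2, Gab1 and Pim1 to the left.

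The genes nearest to Lifr, Il6 and Lif in pattern were found as those with the smallest mean absolute difference over the 6 arrays, after subtracting each gene's own mean. Genes chosen in this way have about the change of the member, so their changes are description and no separate result. Nearest to Lifr was Grb14, an adaptor that restrains the insulin receptor, at 0.0422 log2 units, with a log2 change of -1.29. Fzd10os and Exph5 followed at 0.0978 and 0.101. Nearest to Il6 were Cdr2, Rrp12 and Gstm2 at 0.115, 0.146 and 0.158. Rrp12, a ribosome assembly factor, had a log2 change of 1.88. Lif had 1148 genes within 0.2 units, led by Ptpre, C1qtnf2 and Hmga2-ps1, against 63 for Lifr and 15 for Il6, so the nearest genes say little about Lif.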

How the data were processed

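RNA from whole uterus was hybridised to 6 one-colour Affymetrix arrays, 3 after progesterone and 3 after oil, grouped by the sample titles. The authors deposited log2 expression values for 45101 probe sets. The submitters' processing notes name Partek 6.6 and RMA. Their other settings and detection calls are not given in the sources used here, so the TrpnX controls, between 2.87 and 3.34, stand for background. Array medians were 5.51 to 5.53, and the number of arrays limits the precision.

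Genes were named through the platform's annotation table, in which 34945 probe sets carried 1 symbol, 932 several, and 9160 none here, beside 64 controls. RefSeq identifiers of GRCm38.p6 matched 34741 and changed 0 symbols. Genes with no match (Il11ra1 and 9 on the pathway lists) were not analysed here.

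Limma 3.58.1 under R 4.3.3 was used, with lmFit and eBayes on the 6 arrays, without a filter or block. P-values are two-sided and adjusted by Benjamini-Hochberg over all 18193 genes or, for single probe sets, over 45037 probe sets. An exact permutation test of 3 against 3 arrays cannot go below 0.1 and was not used. The members, lists and tests were chosen with earlier results of these data known. Named were all members, up to 3 called genes a list by size (otherwise the largest change), Jak1, Jak2, Stat5a and Cish, and the 3 genes nearest in pattern to Lif, Lifr and Il6. Marker sums add linear values.

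To check the pairing, each array's deviations from its group mean were correlated across genes with those of its same-numbered partner. The values were 0.523, 0.141 and 0.636. Of the pairs with unlike numbers, progesterone 1 with oil 2 gave 0.322, above the value of the second pair. The same-numbered values all exceed 0.1, so a fit with the number as a block was set beside the main fit. An unlike pair also exceeded 0.1, so this cut does not show that the numbers are pairs. The labels do not say what a number shares. Blocked values appear beside a result where they alter a call. Motifs were searched in the RefSeq stretches of all 9 measured members, and the closing section gives the alternatives.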

Additional observations from a re-analysis of the deposited data

How the results depend on the processing

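Over the 9 members, 161 of 176 outcomes under refits or stricter cuts stayed on the same side of the threshold, with the direction of any call kept. Members without a call count as kept even where the sign of their change turned, and a stricter cut could not have called them. Of the other outcomes, 14 lost a call, 1 gained a call and 0 reversed one. The losses were all in the called members: Il6st in 10 of 20 settings, Il6 in 3 of 18 and Lifr in 1 of 20. The gain was that of Osmr with the S100a8 and S100a9 covariate. Leaving out 1 array gave 379 to 848 higher and 278 to 907 lower genes over all genes, 0 to 1 higher and 1 to 2 lower members, 1 to 5 higher and 1 to 2 lower pathway genes, and 0 to 1 higher and 1 to 3 lower member probe sets. Fewer arrays alone lower the number of calls. The count of higher genes over all genes was lowest without oil replicate 2, then without oil replicate 1 (457) and progesterone replicate 2 (499). When the genes in the lowest 25% or 50% of levels were dropped, 0 members were higher, because Il6 was among those dropped, and at 50% 6 pathway genes were higher and 5 lower. With the mean of probe sets 1 member was lower, and trended and robust eBayes gave 6 higher pathway genes. In the paired fit, with the replicate block, 13 pathway genes were higher and 7 lower, and no call of a member's main probe set changed. At an adjusted p of 0.01, 328 genes were higher and 243 lower, with 0 and 1 of the members and 1 and 1 of the pathway genes. At least 1.5-fold, 674 were higher and 642 lower, with 1 member lower. Chosen after seeing the data were 3 more fits. Without both number 3 arrays, 586 genes were higher and 441 lower, 1 member was lower and 6 pathway genes were higher. With the covariate, 6 pathway genes were higher and 5 lower. Without the 3 arrays high in S100a8, which leaves 1 progesterone array assumed to vary like the oil arrays, limma called 0 genes, 0 members and 0 pathway genes in either direction, while an unadjusted p under 0.05 was seen in 3379 genes, 4 members and 24 pathway genes. There the log2 changes were 1.86 for Il6, -0.93 for Lifr and -0.67 for Il6st. Except where the setting itself removes genes or arrays, the cause of these shifts was not tested. Low signal limits Il6 with oil, and the width of the intervals limits what can be said of Lif, Osmr and Socs3.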
